A study of Mus musculus with 19 samples.

Results

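The genes described here are the 4 members of the opioid receptor family (Oprm1, Oprd1, Oprk1 and Oprl1) and the cannabinoid receptor gene Cnr1, 5 of the 39017 genes in the deposited tables. They were chosen by their symbols, matched to Ensembl gene identifiers, with earlier results of these data already known. Their ribosome-bound mRNA was measured in spiny projection neurons of the mouse striatum by translating ribosome affinity purification (TRAP), in which ribosomes carrying a tagged L10a protein are pulled down with the mRNA on them. There were 4 groups of 4 libraries: D1 neurons of 2-year-old mice (old D1), D1 neurons of 42-day-old mice (young D1), D2 neurons of 2-year-old mice (old D2) and D2 neurons of 42-day-old mice (young D2). D1 libraries came from mice of the strain Drd1::EGFP-L10a and D2 libraries from Drd2::EGFP-L10a, both on a background that the labels write as C56BL/6J, and all mice were female. The tag is thus driven by the regulatory sequence of a dopamine receptor gene, and any cell in which that sequence is active adds its ribosomes; for Drd2 these are known to include the cholinergic interneurons. A further 3 samples, ribosome profiles of NIH-3T3 fibroblasts, are not analysed here.

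Opioid and cannabinoid receptors act through inhibitory G proteins: they lower cyclic AMP, open inwardly rectifying potassium channels and close presynaptic calcium channels. Oprm1 encodes the mu, Oprd1 the delta and Oprk1 the kappa opioid receptor, and Oprl1 encodes the receptor for nociceptin. In the striatum, enkephalin from the Penk precursor is made by D2 neurons and acts mainly on mu and delta receptors, while dynorphin from the Pdyn precursor is made by D1 neurons and acts mainly on kappa receptors. Cnr1 encodes the CB1 receptor, which sits on axon terminals and responds to endocannabinoids released by the cell on the other side of the synapse.

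All of the 5 genes passed the filter on low counts. On GRCm38, the assembly behind mm10, and with GENCODE M21 annotation, Oprm1 (ENSMUSG00000000766) spans chr10:6758506-7038198 on the plus strand and Oprd1 (ENSMUSG00000050511) chr4:132110726-132144486 on the minus strand. Oprk1 (ENSMUSG00000025905) spans chr1:5588466-5606131, Oprl1 (ENSMUSG00000027584) chr2:181715016-181720985 and Cnr1 (ENSMUSG00000044288) chr4:33924593-33948831, all on the plus strand. Each is a protein-coding gene, and each interval covers its exons and introns. No other annotated gene overlaps these intervals except at Oprm1, where Ipcef1 and Gm10945 lie on the opposite strand.

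Promoter windows of 300 bases, 250 before a start site and 50 from it onward, were taken from RefSeq on GRCm38.p6, where 4 of the 5 receptors matched. The window of Oprd1 is shown because its mRNA separated the neuron kinds, and a pair of Cnr1 windows because the isoforms of Cnr1 start at different sites. Capitals mark GC boxes (GGGCGG) and E boxes (CACGTG) on either strand. Of 32851 windows in the table, 35.7% hold a GC box and 7.15% an E box. Each sequence reads in the direction of the gene. The Oprd1 window is chr4:132144437-132144736 on the minus strand, the upstream Cnr1 window chr4:33924394-33924693 and the downstream Cnr1 window chr4:33926130-33926429 on the plus strand.
Oprd1: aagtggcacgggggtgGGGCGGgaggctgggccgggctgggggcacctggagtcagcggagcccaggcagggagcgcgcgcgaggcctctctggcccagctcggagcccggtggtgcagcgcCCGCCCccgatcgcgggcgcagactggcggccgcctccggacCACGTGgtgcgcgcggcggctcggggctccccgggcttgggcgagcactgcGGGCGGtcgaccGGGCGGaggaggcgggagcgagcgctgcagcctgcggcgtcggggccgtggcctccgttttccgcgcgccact
Cnr1 upstream start: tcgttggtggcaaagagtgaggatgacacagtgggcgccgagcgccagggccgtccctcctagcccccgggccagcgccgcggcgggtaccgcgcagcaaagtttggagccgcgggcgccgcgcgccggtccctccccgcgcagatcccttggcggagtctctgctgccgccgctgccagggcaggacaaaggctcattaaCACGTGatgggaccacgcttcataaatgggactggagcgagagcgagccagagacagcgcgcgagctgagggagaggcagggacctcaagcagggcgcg
Cnr1 downstream start: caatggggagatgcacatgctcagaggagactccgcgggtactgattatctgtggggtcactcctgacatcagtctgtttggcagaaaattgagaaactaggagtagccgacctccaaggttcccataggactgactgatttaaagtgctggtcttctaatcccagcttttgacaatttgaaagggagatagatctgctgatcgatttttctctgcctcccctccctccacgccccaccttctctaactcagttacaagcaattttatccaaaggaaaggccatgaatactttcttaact

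The Oprd1 window held 4 GC boxes and 1 E box at 79.3% G and C, against a median of 52.7% over all windows. The upstream Cnr1 window held 1 E box and no GC box at 69% G and C. A further Cnr1 window, not shown, lies before both at chr4:33924014-33924313 and held 5 GC boxes at 76.3% G and C. The downstream Cnr1 window held neither motif at 46.3% G and C. None of the 3 held a TATA box (TATAAA) or a full cyclic AMP response element (TGACGTCA), which 13.6% and 1.79% of all windows hold. A match describes letters in a window and does not show that a factor binds there.

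The libraries held 27484038 to 70903004 assigned fragments. Drd1 averaged 418 ± 130 TPM (a level scaled for transcript length and library size) in old D1, 284 ± 36.7 in young D1, 67.6 ± 16.7 in old D2 and 8.31 ± 2.54 in young D2 libraries (SD, n = 4 each). Drd2 averaged 23.9 ± 21.8, 19.9 ± 15.2, 3529 ± 1550 and 3116 ± 443 TPM in the same order of groups, so the labels of both kinds matched their marker genes. The old D1 libraries stood apart: in them 10369 to 13705 genes had at least 1 count, with the fewest in replicate 4, while in the other 12 libraries the number was 12783 to 15000. Gm42418, the gene with the most fragments in each library, took 4.45 to 5.41% of them in old D1 and 9.76 to 18.2% in the other 12 libraries. By the barcodes in the labels, the old D1 libraries also had an index ending of their own, as did young D2, while young D1 and old D2 shared one. The groups compared thus had different index endings in D1 against D2 at either age and in old against young in either kind. In each of these comparisons, the index set and the group cannot be told apart. Old D2 libraries held more mRNA of D1 neuron markers than young D2 libraries: the summed TPM of 9 markers was 448 to 711 in old D2 and 146 to 172 in young D2. In these bulk samples, fewer cells of a type and less RNA per cell cannot be told apart.

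Across the 5 receptors, Cnr1 mRNA was the most abundant, Oprd1 mRNA was carried almost entirely by D2 libraries, and the other 3 opioid receptor mRNAs were found in both kinds at levels that varied widely between libraries. Cnr1 had the highest TPM of the 5 in 15 of 16 libraries. The exception was old D2 replicate 1, with 73.5 TPM of Oprd1 and 68.5 TPM of Cnr1. Cnr1 made up 60.5 ± 26.4% of the summed TPM of the 5 receptors in old D1, 78.7 ± 5.03% in young D1, 47.3 ± 9.06% in old D2 and 71.7 ± 3.51% in young D2 libraries (SD, n = 4 each). In D2, that share was 35.9 to 56.1% in the old libraries and 66.6 to 74.6% in the young ones, with no overlap. In D1 it was 37.7 to 98.3% in the old libraries, where replicate 4 gave the highest value, and 71.2 to 81.9% in the young ones.

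**Figure D1:**
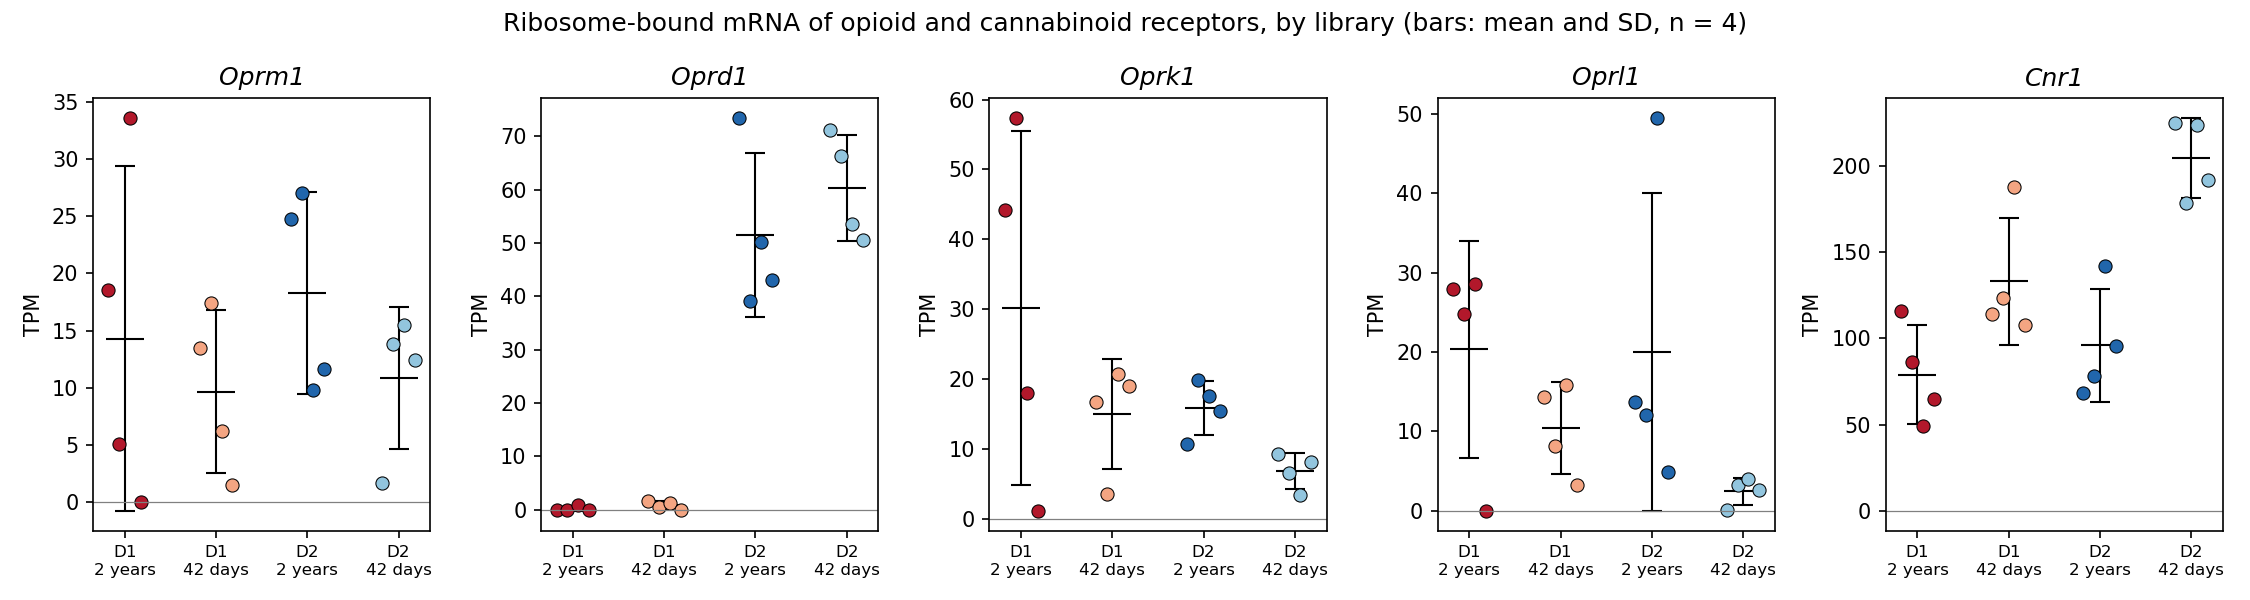
TPM of each receptor (vertical axis, linear, 1 scale per panel) in each library of the 4 groups (horizontal axis); points are libraries and bars are the mean with its SD (n = 4). Oprd1 lies between 0 and 1.61 TPM in all 8 D1 libraries and between 39.1 and 73.5 TPM in all 8 D2 libraries, and Cnr1 lies lower in the old than in the young libraries of D2, with no overlap.

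Oprd1, the delta receptor that enkephalin binds, was lower in D1 than in D2 neurons at both ages. In old neurons, Oprd1 had 0, 0, 0.91 and 0 TPM in the D1 libraries and 73.5, 39.1, 50.2 and 43.1 TPM in the D2 libraries. In young neurons, it had 1.61, 0.43, 1.33 and 0 TPM in the D1 libraries and 71.2, 66.2, 53.6 and 50.5 TPM in the D2 libraries. Every D2 library lay above every D1 library, and 4 of the 8 D1 libraries held no Oprd1 count. A count of 0 allows up to 3 counts, which in those libraries is 0.0308 to 0.0468 TPM.

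At 2 years, Oprd1 was 216-fold lower in D1 than in D2 (log2 fold change -7.76, SE 1.40, 95% interval -10.7 to -4.83, edgeR quasi-likelihood test, adjusted p = 0.00187). Over all genes tested in that comparison, 9.60% were called at an adjusted p under 0.05, and Oprd1 was the only one of the 5 receptors called. The size of that fold rests on old D1 replicate 3, the only old D1 library with a count. Without it the call stood (adjusted p = 5e-05) and old D1 was at 0 throughout, and with GC and length trends removed the log2 fold change was -7.02. At 42 days, Oprd1 was 69.9-fold lower in D1 (log2 fold change -6.13, SE 1.29, 95% interval -8.82 to -3.44, adjusted p = 0.0345), again the only receptor called, where 0.409% of all genes tested were. The call at 42 days ended with no filter on low counts (adjusted p = 0.189) and when any single young D1, old D2 or young D2 library was left out (adjusted p 0.0527 to 0.154), though the log2 fold change stayed between -6.62 and -5.72 in these fits without a library. Averaged over both ages, a comparison added after the values were seen, Oprd1 was lower in D1 (log2 fold change -6.94, SE 0.95, 95% interval -8.93 to -4.96, adjusted p = 0.000213) and passed under all 23 alternatives, and 4.84% of all genes tested were called there.

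The Drd2 driver also marks cholinergic interneurons, so their markers were set beside Oprd1. Of a list of 5, the 4 that were measured (Chat, Slc5a7, Lhx8 and Slc17a8) summed to 0.20 to 1.86 TPM in old D1 and 11.8 to 25.2 TPM in old D2 libraries. They summed to 0.18 to 5.25 TPM in young D1 and 11 to 27 TPM in young D2 libraries. Lhx8 was at 0 in all old D1 libraries, and Chat, the enzyme that makes acetylcholine, averaged 1.63 ± 1.27 TPM in old D2 and 1.38 ± 0.878 TPM in young D2 libraries (SD, n = 4 each). At 42 days the Chat ranges overlapped, with 0 to 2.69 TPM in D1 and 0.30 to 2.37 TPM in D2. Of the 4 markers, 1 was called lower in D1 at 2 years, where 9.60% of all genes tested were called. None was called at 42 days, where 0.409% of all genes tested were. The summed TPM of the markers thus differed between the kinds in the same direction as Oprd1. Their part in the Oprd1 difference was not tested.

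With age, Oprd1 passed in neither kind. In D1 the log2 fold change of old over young was -1.95 (SE 1.12, 95% interval -4.30 to 0.40, adjusted p = 0.282), with groups that overlapped. That value rests on old D1 replicate 3: without it, all remaining old D1 libraries were at 0 and the adjusted p was 0.00243, with 0.0173 for the difference of age changes and 0.00688 for age averaged over both kinds. In D2 the log2 fold change was -0.32 (SE 1.03, 95% interval -2.47 to 1.82, adjusted p = 1), and the old range of 39.1 to 73.5 TPM contained the young range of 50.5 to 71.2 TPM. Over 16 libraries, the 3 genes whose log2(TPM + 1) followed Oprd1 most closely among 8993 genes were Ttc12 (Pearson r = 0.981), which lies near Drd2, Drd2 itself (r = 0.969) and Grik3 (r = 0.953), a kainate receptor subunit. These correlations mainly separate D2 from D1 libraries.

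Cnr1, the CB1 receptor gene, was lower at 2 years than at 42 days. In D1 neurons it had 116, 86.3, 49.2 and 64.8 TPM in the old libraries and 114, 123, 188 and 108 TPM in the young ones. In D2 neurons it had 68.5, 78.1, 142 and 95.8 TPM in the old libraries and 225, 179, 224 and 192 TPM in the young ones. The old and young groups overlapped in D1, where old replicate 1 reached the young values, and did not overlap in D2.

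Averaged over both kinds, a comparison added after the values were seen, Cnr1 fell 2.00-fold with age (log2 fold change -1.0, SE 0.19, 95% interval -1.40 to -0.61, adjusted p = 0.00453). It passed under all 23 alternatives (adjusted p 6.74e-05 to 0.0339), in a comparison where 5.02% of all genes tested were called. Over both kinds the 8 old libraries averaged 87.6 ± 30.0 TPM and the 8 young ones 169 ± 47.8 TPM (SD). No other receptor was called in that comparison.

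Taken separately, Cnr1 in D1 had a log2 fold change of -0.83 with age (SE 0.27, 95% interval -1.39 to -0.28, adjusted p = 0.0488), and 10.8% of all genes tested were called there. That call sat at the threshold and held under 4 of 24 alternatives (DESeq2 and the fits without old D1 replicate 1, old D2 replicate 1 or old D2 replicate 3), with the direction kept in all 24. It ended when any other single library was left out (adjusted p 0.0525 to 0.140). In D2 the log2 fold change of Cnr1 was -1.17 (SE 0.27, 95% interval -1.73 to -0.62, unadjusted p = 0.000295, adjusted p = 0.169). It was not called with edgeR, which called no receptor and 0.0790% of all genes tested, though 2 receptors, Cnr1 and Oprl1, had an unadjusted p under 0.05. DESeq2 called Cnr1 in D2 (adjusted p = 0.00899), as did voom with library weights (0.00176), a fit of the D2 libraries alone (0.0494) and the fit without old D2 replicate 3 (0.0496). The age change of Cnr1 was 0.34 less negative in D1 than in D2 on the log2 scale (SE 0.37, 95% interval -0.44 to 1.12, adjusted p = 0.721). That difference was called for none of the 5 receptors, none of which had an unadjusted p under 0.05, and for 1.77% of all genes tested.

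The summed TPM of markers shared by all spiny projection neurons was lower in old libraries, as was Cnr1, while that of D1 neuron markers was higher. The summed TPM of 8 shared markers was 4878 to 5173 in old D1 and 6048 to 7517 in young D1 libraries, and 7954 to 8759 in old D2 and 9159 to 10735 in young D2 libraries. Of these 8, 2 were called lower with age in D1, where 10.8% of all genes tested were called. The 9 D1 markers summed to 4924 to 7932 TPM in old D1 and 2736 to 3560 TPM in young D1 libraries. Of these 9, 1 was called higher with age in D1. In D2, 4 of the 9 D1 markers were called higher with age, where 0.0790% of all genes tested were called. The part of these markers in the Cnr1 result was not tested.

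Between the kinds Cnr1 was not called at either age. The log2 fold change of D1 over D2 was -0.18 at 2 years (SE 0.26, 95% interval -0.73 to 0.37, adjusted p = 0.726) and -0.52 at 42 days (SE 0.26, 95% interval -1.07 to 0.03, adjusted p = 0.873). By mean TPM the order was young D2 (205 ± 23.2), young D1 (133 ± 36.8), old D2 (96.1 ± 32.7) and old D1 (79 ± 28.8; SD, n = 4 each), and the ranges of each neighbouring pair in that order overlapped. The genes whose pattern was most like that of Cnr1 over the 16 libraries were Ivns1abp (Pearson r = 0.898), Rwdd2b (r = 0.804) and Ptp4a1 (r = 0.785).

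**Figure D2:**
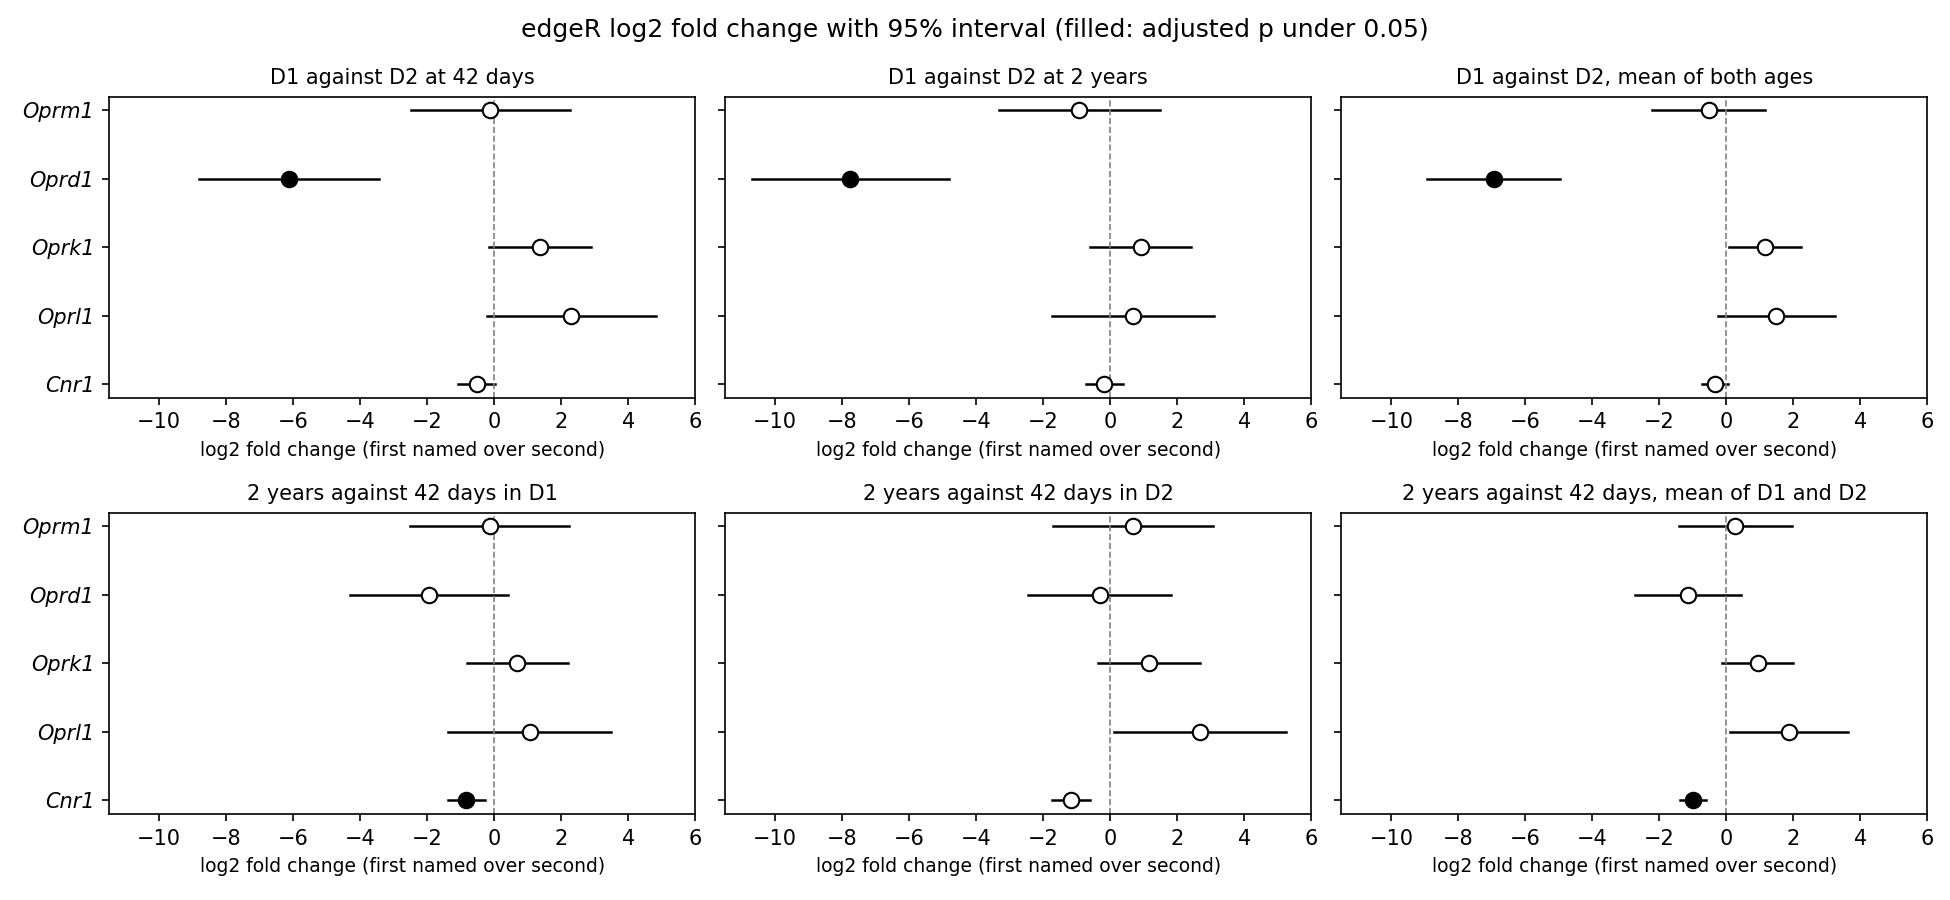
Log2 fold change of each receptor (horizontal axis, first named group over the second) with its 95% interval from edgeR, in 6 comparisons; filled points have an adjusted p under 0.05. Oprd1 is filled in all 3 comparisons of D1 with D2, Cnr1 is filled for age in D1 and for age averaged over both kinds, and the intervals of Oprm1 cross 0 in each panel.

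Oprk1, the kappa receptor on which dynorphin acts, was detected in all 16 libraries. It had 44.2, 57.4, 17.96 and 1.10 TPM in old D1 and 16.8, 3.45, 20.8 and 19.0 TPM in young D1 libraries. It had 10.6, 19.8, 17.5 and 15.5 TPM in old D2 and 9.28, 6.45, 3.37 and 8.16 TPM in young D2 libraries. Old D1 replicates 1 and 2 held the highest values and replicate 4 of the same group the lowest, below all old D2 libraries. Young D1 replicate 2 lay within the young D2 range, and the other 3 young D1 libraries lay above it. The old D2 libraries all lay above the young D2 libraries.

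None of these differences in Oprk1 passed. The log2 fold change of D1 over D2 was 0.90 at 2 years (SE 0.72, 95% interval -0.61 to 2.41, adjusted p = 0.481) and 1.38 at 42 days (SE 0.73, 95% interval -0.15 to 2.90, adjusted p = 0.903). Averaged over both ages it was 1.14 (SE 0.51, 95% interval 0.07 to 2.21, unadjusted p = 0.0384, adjusted p = 0.228). Without old D1 replicate 4 that averaged difference was 1.34 with an adjusted p of 0.0319. With age, the log2 fold change was 0.69 in D1 (adjusted p = 0.594) and 1.16 in D2 (SE 0.73, 95% interval -0.35 to 2.68, adjusted p = 1). By mean TPM the order was old D1, old D2, young D1 and young D2, and the ranges of each neighbouring pair overlapped. Wdr44 (Pearson r = 0.878), Tsen15 (r = 0.841) and Grb10 (r = 0.837) had the patterns most like it.

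Oprl1, the nociceptin receptor, had 27.9, 24.8, 28.6 and 0 TPM in old D1 and 14.3, 8.21, 15.8 and 3.18 TPM in young D1 libraries. It had 13.7, 12.02, 49.5 and 4.84 TPM in old D2 and 0.05, 3.21, 3.97 and 2.67 TPM in young D2 libraries. The 3 old D1 libraries with a count lay above all young D1 libraries, while replicate 4 held none. All old D2 libraries lay above all young D2 libraries, by a small margin for the lowest. These levels include isoforms not annotated as protein-coding. By the isoform estimates, protein-coding Oprl1 had 10.78, 7.48, 0.05 and 0.04 TPM in old D2 and 0, 0, 2.97 and 0.31 TPM in young D2 libraries. It had 0.69, 1.29, 28.63 and 0 TPM in old D1 and 5.85, 8.21, 0.56 and 3.18 TPM in young D1 libraries. Old and young thus overlapped in both kinds for the protein-coding isoforms.

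The age change of Oprl1 was not called in either kind. Its log2 fold change was 1.05 in D1 (SE 1.16, 95% interval -1.38 to 3.49, adjusted p = 0.620) and 2.67 in D2 (SE 1.23, 95% interval 0.11 to 5.23, unadjusted p = 0.0421, adjusted p = 0.825). Averaged over both kinds it was 1.86 (SE 0.84, 95% interval 0.10 to 3.62, unadjusted p = 0.0391, adjusted p = 0.214), and without old D1 replicate 4 it was 2.07 with an adjusted p of 0.0349. Between the kinds, the log2 fold change of D1 over D2 was 0.68 at 2 years (SE 1.16, adjusted p = 0.775) and 2.30 at 42 days (SE 1.21, 95% interval -0.23 to 4.82, adjusted p = 0.901). The order by mean TPM was old D1, old D2, young D1 and young D2, with overlap of each neighbouring pair. The patterns most like Oprl1 were those of Smyd3 (Pearson r = 0.842), Tmbim4 (r = 0.835) and Tnnt2 (r = 0.824).

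Oprm1, the mu receptor, varied widely between replicates, with an SD of 48.2 to 105% of the mean in the 4 groups. It had 18.6, 5.05, 33.6 and 0 TPM in old D1 and 13.5, 17.4, 6.24 and 1.53 TPM in young D1 libraries. It had 24.8, 27.01, 9.84 and 11.6 TPM in old D2 and 1.72, 13.8, 15.5 and 12.4 TPM in young D2 libraries. All 4 groups overlapped, and each neighbouring pair in the order of means (old D2, old D1, young D2 and young D1) did too. These levels include isoforms not annotated as protein-coding. By the isoform estimates, Oprm1-215 was the only protein-coding isoform with any TPM in old D1, at a mean of 1.32 TPM. Of those not annotated as protein-coding, Oprm1-209 took 45.2%, Oprm1-218 29.1% and Oprm1-227 13.7% of Oprm1 TPM in old D1. The largest share of such an isoform was 16.9% in young D1 (Oprm1-209), 19.2% in old D2 (Oprm1-228) and 17.0% in young D2 (Oprm1-209).

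No comparison of Oprm1 passed, and the intervals were wide. The log2 fold change of D1 over D2 was -0.93 at 2 years (SE 1.15, 95% interval -3.33 to 1.47, adjusted p = 0.674) and -0.12 at 42 days (SE 1.14, 95% interval -2.49 to 2.26, adjusted p = 0.999). With age it was -0.14 in D1 (SE 1.14, 95% interval -2.52 to 2.24, adjusted p = 0.965) and 0.68 in D2 (SE 1.14, 95% interval -1.71 to 3.06, adjusted p = 1). The patterns most like Oprm1 were those of Ercc6l2 (Pearson r = 0.914), Agpat4 (r = 0.890) and Llph (r = 0.864).

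Oprm1 marks the striosomes, the patches of the striatum that stand out from the surrounding matrix. The striosome list, which holds Oprm1 and of which 7 of 8 genes were measured, summed to 290 to 682 TPM in old D1, 276 to 412 TPM in young D1, 118 to 291 TPM in old D2 and 137 to 218 TPM in young D2 libraries. Lypd1 averaged 188, 181, 106 and 109 TPM in that order of groups. Pdyn, which is also on the D1 marker list, averaged 195, 82.2, 4.38 and 2.52 TPM. The highest mean of any other gene of the list was 47.0 TPM, for Nr4a1 in young D1. The 5 matrix markers summed to 630 to 889 TPM in old D1 and 309 to 455 TPM in young D1, and 3 of these 5 were called higher with age in D1, where 1 of the 7 striosome genes was called lower and 10.8% of all genes tested were called. In D2 they summed to 482 to 575 TPM in the old and 313 to 450 TPM in the young libraries, with none called. The part of these compartments in the receptor values was not tested. Ipcef1, on the strand opposite Oprm1, averaged 8.13 TPM in old D1, 3.18 TPM in young D1, 15.99 TPM in old D2 and 8.12 TPM in young D2 libraries. With the strand setting of the counting not stated, fragments of the overlapping stretch could belong to either gene. Of the Oprm1 isoforms with any TPM, Oprm1-218, Oprm1-226 and Oprm1-220 reach Ipcef1, and the others end before it. None of those that reach it is annotated as protein-coding. By the isoform estimates, Oprm1-218 took 29.1% and Oprm1-226 2.76% of Oprm1 TPM in old D1. In young D1, Oprm1-218 took 0.49% and Oprm1-220 0.852%, and each of these isoforms was at 0 in both D2 groups.

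Isoform estimates split the receptors into transcripts that begin at different sites. Oprd1 has 1 annotated isoform. Cnr1 has 3, and its TPM fell almost wholly on Cnr1-201, which begins near the upstream window shown above, and Cnr1-202, which begins near the downstream one. Cnr1-201 took 0, 100, 3.84 and 100% of the Cnr1 isoform TPM in old D1 and 90.3, 87.7, 49.0 and 97.1% in young D1 libraries. It took 96.5, 63.1, 97.7 and 82.9% in old D2 and 73.7, 47.3, 78.0 and 62.1% in young D2 libraries. The old D1 libraries lay at both ends of the scale, and the other 12 lay between 47.3 and 97.7%.

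Oprm1 has 31 annotated isoforms, of which 12 had any TPM and 5 averaged over 1 TPM. Those that begin upstream took 8.52, 27.7 and 88.5% in the 3 old D1 libraries with a count and 55.7 to 88.0% in young D1, and 41.8 to 79.1% in old D2 and 11.6 to 100% in young D2 libraries. The isoform Oprk1-204 led the Oprk1 estimate at 71.5 ± 30.7% in old D1, 94.7 ± 9.23% in young D1, 92.3 ± 11.6% in old D2 and 87.7 ± 21.2% in young D2 libraries (SD, n = 4 each). Protein-coding isoforms of Oprl1 took 0 to 100% of its isoform TPM from library to library. The leading isoform's share was tested where both groups held at least 1 TPM in every library, in 10 comparisons (two-sided exact permutation tests, adjusted p 0.536 to 0.80). For Oprm1 the isoform tested was Oprm1-207, which is not among those that begin upstream. It took 11.1 ± 22.1% in young D1, 60.3 ± 41.2% in young D2 and 29.5 ± 23.8% in old D2 libraries (SD, n = 4 each). The smallest p that 4 against 4 libraries can give is 0.0286, which for a single comparison among 10 is 0.286 after adjustment, so no share could have passed on its own and these tests do not show that the shares were alike.

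**Figure D3:**
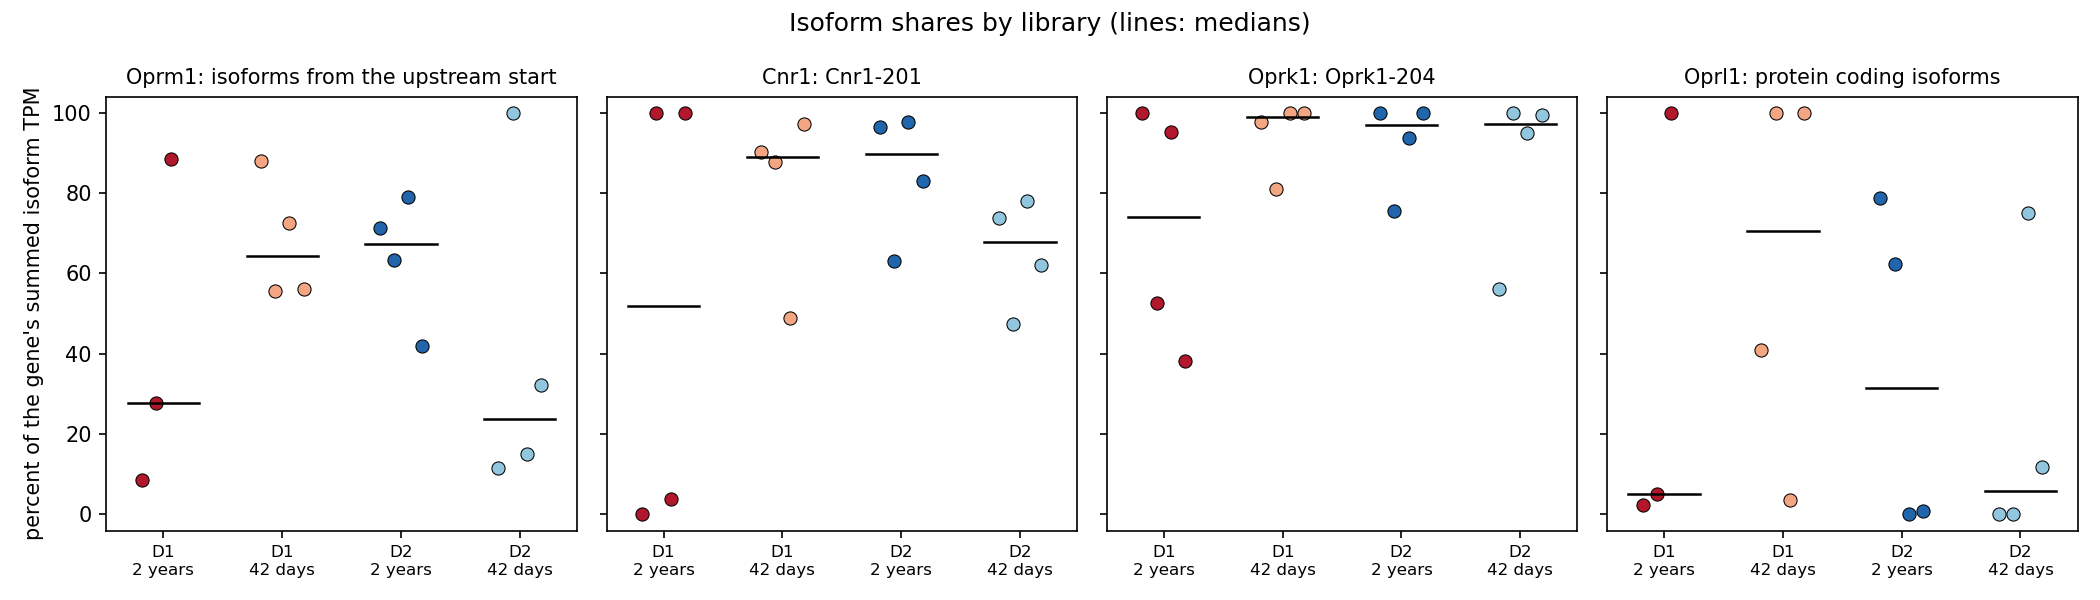
Percent of a gene's summed isoform TPM (vertical axis) taken by the named isoform or set of isoforms, by library and group; lines are medians, and libraries with no TPM of the gene are left out. For Cnr1-201, the old D1 libraries lie at 0, 3.84, 100 and 100%, while the other groups lie between 47.3 and 97.7%.

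The partners of these receptors were read from a list of 48 genes of opioid peptides, endocannabinoid enzymes and receptor signalling, of which 43 were tested. In D1 against D2, 4 were called higher and 3 lower at 2 years, and 2 higher and 2 lower at 42 days. Over all genes tested, 9.60% were called at 2 years and 0.409% at 42 days. The median log2 fold change of the list was -0.03 at 2 years, against -0.07 over all genes tested, and -0.03 at 42 days, against 0.02. With age, 1 was called higher and 2 lower in D1, and none higher and 1 lower in D2. Over all genes tested, 10.8% were called in D1 and 0.0790% in D2. The median of the list was -0.19 in D1, against -0.06 over all genes, and 0.01 in D2, against 0.01. For the difference of age changes, 1 was called higher and none lower, where 1.77% of all genes tested were called, with a median of -0.38, against -0.11.

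The ligand precursors separated the kinds. Penk averaged 236 ± 194 TPM in old D1 and 3894 ± 1172 TPM in old D2, a log2 fold change of -3.80 (SE 0.47, adjusted p = 6.2e-05). In young neurons Penk averaged 119 ± 35.9 TPM in D1 and 4269 ± 377 TPM in D2 (log2 fold change -5.05, SE 0.50, adjusted p = 8.03e-06). Pdyn averaged 195 ± 71.9 TPM in old D1 and 4.38 ± 0.607 TPM in old D2 (log2 fold change 5.62, SE 0.47, adjusted p = 8.33e-07). In young neurons Pdyn averaged 82.2 ± 9.87 TPM in D1 and 2.52 ± 1.63 TPM in D2 (log2 fold change 5.15, SE 0.46, adjusted p = 2.13e-06; SD, n = 4 each). With GC and length trends removed, the log2 fold change of D1 over D2 at 2 years was -1.90 for Penk (adjusted p = 0.0473) and 7.21 for Pdyn, and without old D1 replicate 4 it was -4.65 for Penk. Of the 5 receptors, none was called higher in D1, the kind that held more Pdyn. With age, Pdyn had a log2 fold change of 1.18 in D1 (SE 0.39, adjusted p = 0.0588) and 0.71 in D2 (adjusted p = 1), and Penk 1.03 in D1 (adjusted p = 0.128) and -0.22 in D2 (adjusted p = 1). The age change in D1 was called for Penk under 2 of 24 alternatives, with GC and length trends removed (log2 fold change 2.87, adjusted p = 0.0100) and without old D1 replicate 1 (1.31, adjusted p = 0.0427). It was called for Pdyn under 6 of 24, among them the removal of GC and length trends (2.53, adjusted p = 0.00973) and the fits without old D1 replicate 1 (adjusted p = 0.0233), young D2 replicate 1 (0.0349) or young D2 replicate 4 (0.0438). Pnoc, the nociceptin precursor, was listed at 0 counts in all 16 libraries and was not tested.

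Among enzymes that shape or break down opioid peptides, 8 of 9 were tested. Mme (neprilysin, which cleaves enkephalin) was lower in D1 than in D2 at 2 years, with 43.6 ± 13.2 TPM in D1 and 111 ± 6.86 TPM in D2 (log2 fold change -1.23, SE 0.26, adjusted p = 0.00514). It was lower at 42 days too, with 46.0 ± 13.2 TPM in D1 and 125 ± 26.8 TPM in D2 (log2 fold change -1.35, SE 0.26, adjusted p = 0.0140). The call of Mme ended with GC and length trends removed at both ages (log2 fold change -0.84, adjusted p = 0.0918 at 2 years and -1.19, adjusted p = 0.498 at 42 days), and at 42 days without replicate 1 or 4 of young D1 or replicate 1 or 3 of young D2 (log2 fold change -1.29 to -1.23, adjusted p 0.0619 to 0.0795). Cpe (carboxypeptidase E, which trims peptide precursors) averaged 1767 ± 431 TPM in old D1 and 492 ± 231 TPM in young D1, a log2 fold change of 1.82 (SE 0.35, adjusted p = 0.00260; SD, n = 4 each), and of 3.12 with GC and length trends removed.

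No enzyme that makes or breaks down endocannabinoids was called in any of these 4 comparisons, among 9 tested. Dagla, which makes 2-arachidonoylglycerol, averaged 26.1 ± 27.2 TPM in old D1, 46.2 ± 16.1 in young D1, 33.4 ± 8.25 in old D2 and 30.5 ± 9.45 in young D2 libraries. Mgll, which breaks down the same lipid, averaged 28.3 ± 16.6, 31.4 ± 19.0, 44.7 ± 4.60 and 38.5 ± 9.91 TPM in that order of groups. Faah, which breaks down anandamide, averaged 0.715 ± 1.02, 4.09 ± 1.83, 3.52 ± 3.42 and 7.65 ± 4.95 TPM. Cnrip1, which binds the tail of CB1, averaged 17.7 ± 14.7, 35.3 ± 13.4, 37.4 ± 16.8 and 35.7 ± 8.66 TPM (SD, n = 4 each throughout). The adjusted p of these 4 genes was 0.335 or above in each of the 4 comparisons. Dagla turned on old D1 replicate 4: without it, the log2 fold change with age in D1 was -1.95 (adjusted p = 0.00252), the D1 to D2 comparison at 2 years had an adjusted p of 0.0266 and the difference of age changes 0.0370. With GC and length trends removed, Dagla was instead 2.29 higher in D1 than in D2 at 2 years on the log2 scale (adjusted p = 0.0321).

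Downstream of the receptors, the inhibitory G protein gene Gnai1 was higher in D1 than in D2 at both ages. It averaged 341 ± 54.7 TPM in old D1 and 86.9 ± 7.77 TPM in old D2 (log2 fold change 2.08, SE 0.18, adjusted p = 1.03e-06), and 238 ± 40.6 TPM in young D1 and 67.8 ± 12.95 TPM in young D2 (log2 fold change 1.91, SE 0.18, adjusted p = 3.93e-06). Gnai2 fell with age in D1, with 9.94 ± 7.16 TPM in old and 46.9 ± 14.9 TPM in young libraries (log2 fold change -2.33, SE 0.56, adjusted p = 0.0124). Grk5, a kinase that phosphorylates active receptors, fell in D1 as well, with 1.49 ± 1.41 TPM in old and 15.2 ± 7.27 TPM in young libraries (log2 fold change -3.49, SE 1.02, adjusted p = 0.0338). With GC and length trends removed, Gnai2 had a log2 fold change of -0.55 (adjusted p = 0.552), and both calls ended with voom or with only the D1 libraries fitted. The call of Grk5 also ended without replicate 1 or 2 of old D1 or replicate 1, 3 or 4 of young D1 (adjusted p 0.0509 to 0.0758). Kcnj3, a subunit of the potassium channel that these receptors open, rose with age averaged over both kinds, a comparison added after the values were seen in which 5.02% of all genes tested were called (log2 fold change 2.32, SE 0.46, adjusted p = 0.00655). It was called in neither kind alone (log2 fold change 1.65, adjusted p = 0.101 in D1 and 2.99, adjusted p = 0.155 in D2). It averaged 19.1 ± 9.44 TPM in old D1 and 8.01 ± 6.10 TPM in young D1, and 18.9 ± 10.2 TPM in old D2 and 1.72 ± 0.974 TPM in young D2 libraries (SD, n = 4 each).

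Regulators of G protein signalling end the signal of inhibitory G proteins. Rgs4 had 290, 332, 418 and 404 TPM in old D2 and 945, 880, 939 and 998 TPM in young D2 libraries, with no overlap (log2 fold change -1.47, SE 0.18, adjusted p = 0.000599). In D1 it averaged 726 ± 158 TPM in old and 836 ± 174 TPM in young libraries. The age change was 1.19 higher in D1 than in D2 on the log2 scale (SE 0.25, adjusted p = 0.0232), and it lost its call without replicate 1, 2 or 4 of young D1, replicate 2 of old D2, or replicate 2 or 4 of young D2 (adjusted p 0.0512 to 0.0699). With GC and length trends removed, the age change of Rgs4 in D2 was -1.57 (adjusted p = 0.578) and the difference 1.70 (adjusted p = 0.0541). Rgs4 was higher in D1 than in D2 at 2 years (log2 fold change 1.12, SE 0.18, adjusted p = 0.000726), and by 1.80 with GC and length trends removed. Rgs14 was lower in D1 at that age, with 7.45 ± 7.11 TPM in D1 and 32.1 ± 3.20 TPM in D2 (log2 fold change -2.35, SE 0.57, adjusted p = 0.0142), a value that was -0.78 with GC and length trends removed (adjusted p = 0.246) and -3.21 without old D1 replicate 3. Rgs9, the striatal member, averaged 175 ± 207 TPM in old D1, 144 ± 39.1 in young D1, 141 ± 31.5 in old D2 and 163 ± 39.8 in young D2 libraries (SD, n = 4 each), and passed in none of the 4 comparisons. Without old D1 replicate 4, which had the highest Rgs9 level, its log2 fold change with age in D1 was -1.22 (adjusted p = 0.0133), and D1 against D2 at 2 years had an adjusted p of 0.0421. With GC and length trends removed, Rgs9 was 2.20 higher in D1 at 2 years on the log2 scale (adjusted p = 0.0336).

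**Figure D4:**
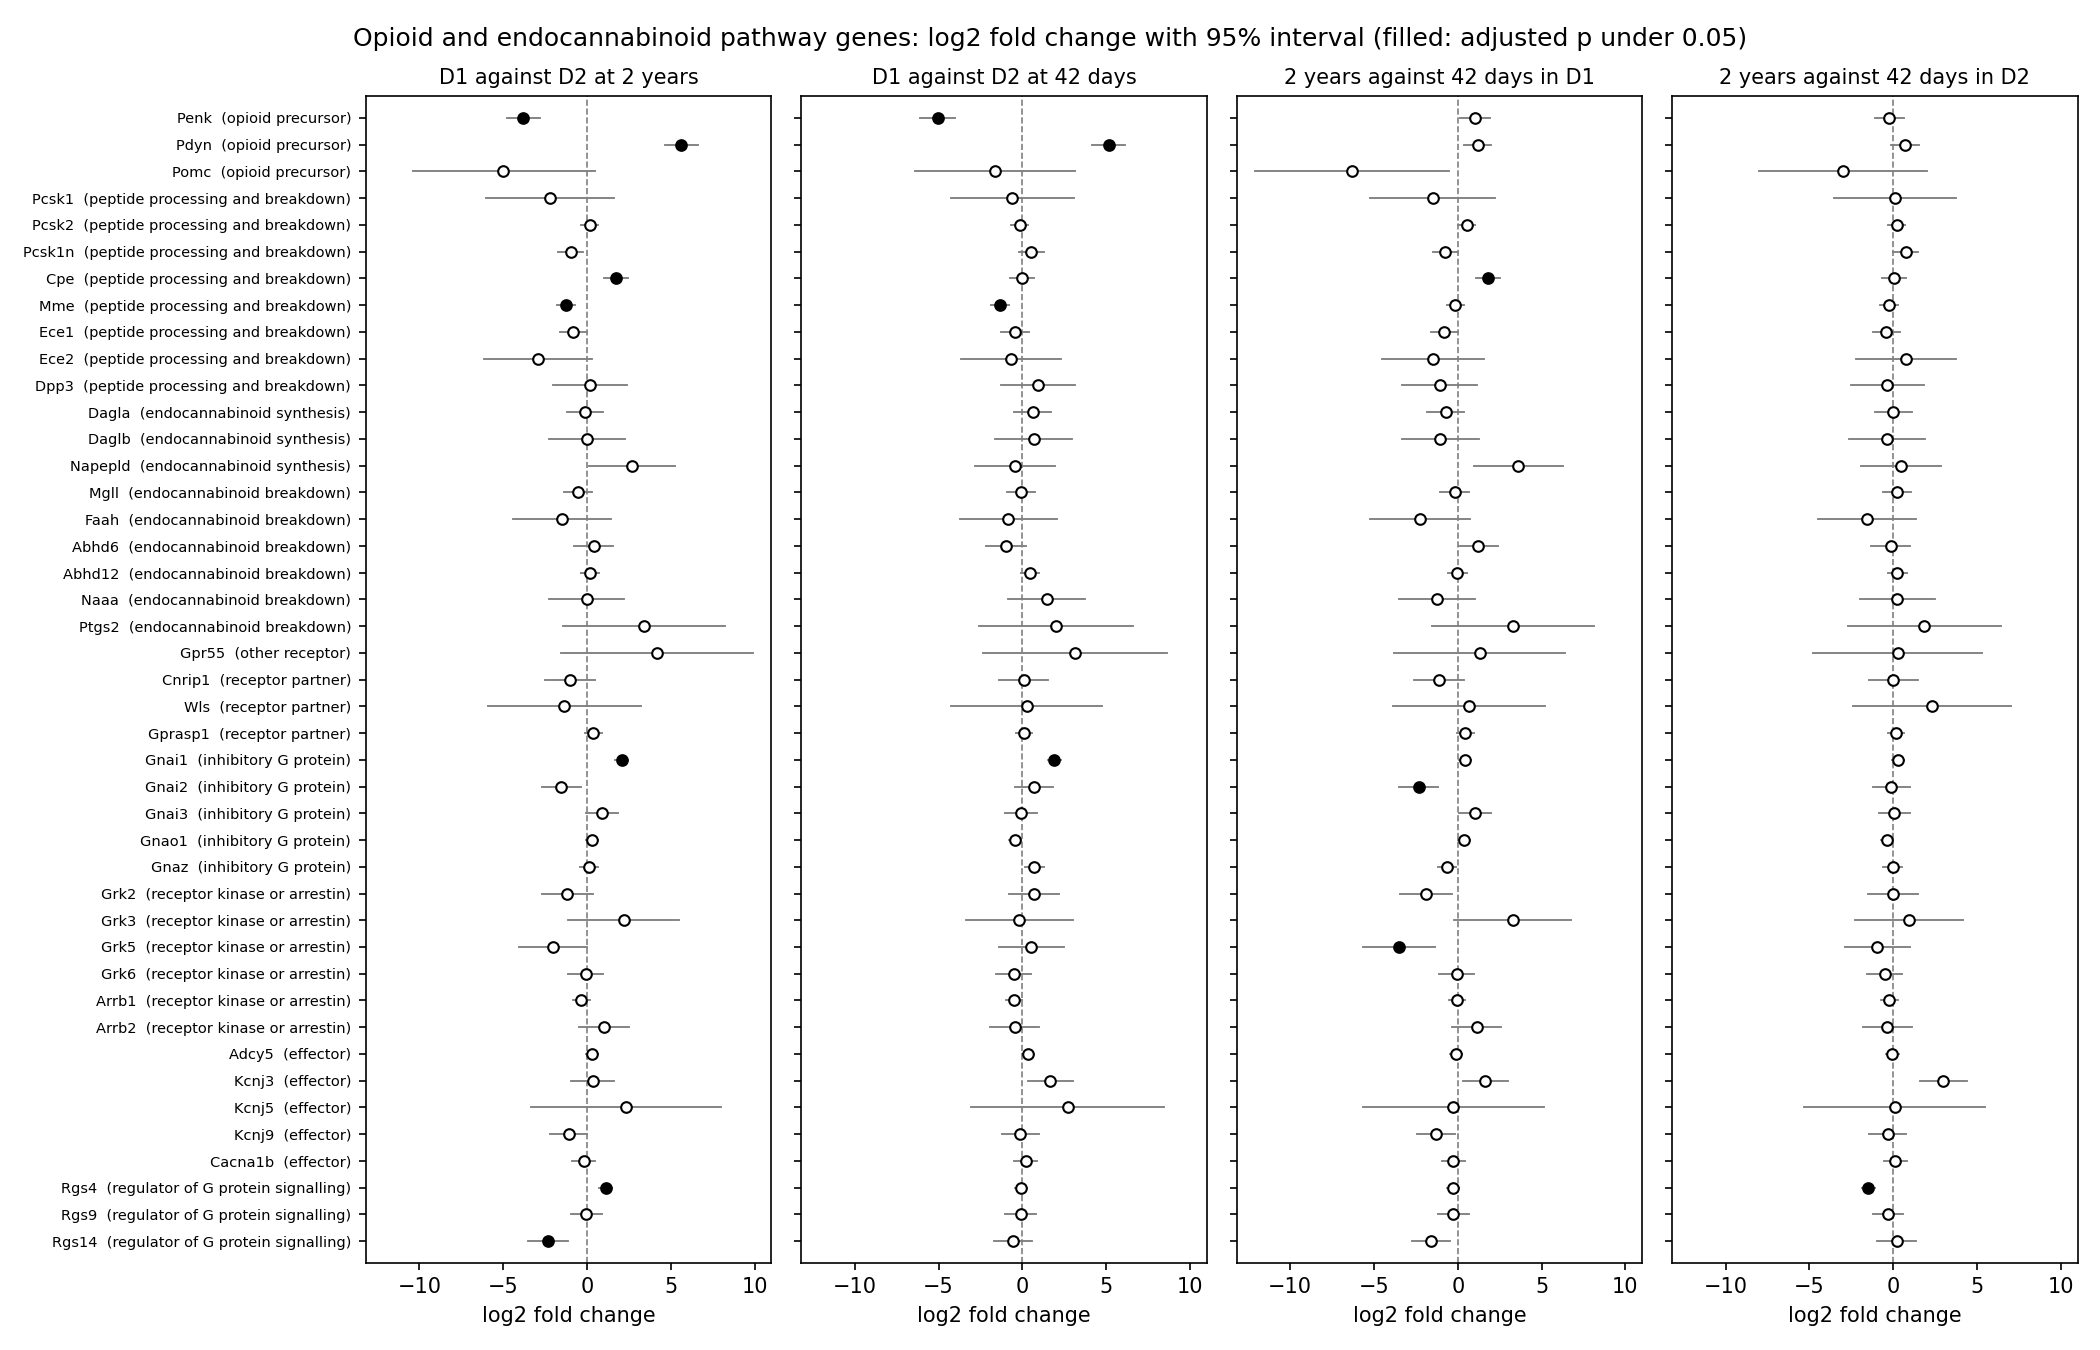
Log2 fold change (horizontal axis, first named group over the second) with its 95% interval for the 43 tested genes of the pathway list (vertical axis, role in brackets) in 4 comparisons; filled points have an adjusted p under 0.05. Among the filled points of both comparisons of D1 with D2, Penk lies lowest and Pdyn highest, at -3.80 and 5.62 at 2 years.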

How the data were processed

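Ribosome-bound mRNA was sequenced from 16 libraries, 4 per group, and per the labels' protocols the cDNA was amplified (NuGEN Ovation V2). The submitters' processing notes name STAR 2.5.1b, RSEM 1.2.20 and mm10. Per the file headers, the deposited values are RSEM expected counts (estimated counts), TPM, an effective length and, per isoform, a percent of the gene's TPM. No source used here states the annotation release or whether counting used strand. The design text calls the libraries biological replicates. No batch or pairing is labelled; barcode endings go with the groups, except that young D1 and old D2 share one.

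Expected counts were rounded, since 20% of nonzero values were not whole. Genes passing filterByExpr (13926 of 39017) were tested over all libraries with TMM scaling and edgeR's robust quasi-likelihood test (edgeR 4.0.16, limma 3.58.1, DESeq2 1.42.0, R 4.3.3), two-sided; a gene was called where its p, adjusted by Benjamini-Hochberg, was under 0.05. The test was also run on simulated counts. These did not copy the low number of genes detected in old D1, so that check does not cover it. Isoform shares were computed from the deposited isoform TPM. Levels are the authors' TPM. Depth was 27484038 to 70903004 fragments. With no molecular identifiers, floors of 3 counts cover counting error only. RSEM divides shared fragments between isoforms by a model.

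Besides the receptors, the text names up to 3 called pathway genes per direction and comparison, Penk, Pdyn, Pnoc, Dagla, Mgll, Faah, Cnrip1 and Rgs9, and the 3 genes per receptor with the highest Pearson r of log2(TPM + 1) among tested genes with a mean of at least 5 TPM. Comparisons averaged over kinds or ages were added after the data were seen. The alternatives were other size factors, DESeq2, no count filter, only the compared groups, limma on log2(TPM + 1) and log2(TPM + 0.1) for genes with a mean of at least 1 TPM, voom with library weights, removal of GC and length trends, and leaving out each library. The receptors, the pathway list and the marker lists were chosen with earlier results of these data known. Names and positions came from GENCODE M21.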

Additional observations from a re-analysis of the deposited data

Results flagged for a closer look

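Among 52 groups of 4 libraries tested for a library far from the others, 6 were flagged, where chance flags about 1 in 20. Oprd1 in old D1 replicate 3 had 0.91 TPM while the other old D1 libraries had 0. Oprl1 was at 0 TPM in old D1 replicate 4, and the next old D1 library had 24.8 TPM. In the same library, Dagla was at 66.6 TPM with the next old D1 library at 16.5 TPM, and Rgs9 was at 485 TPM with the next at 87.4 TPM. Mgll in old D1 replicate 3 was at 53.2 TPM, and the next old D1 library had 20.5 TPM. Cnrip1 in young D1 replicate 1 was at 55.3 TPM, and the next young D1 library had 29.6 TPM. The age change of Rgs4 differed between the kinds, by 1.19 on the log2 scale (D1 minus D2, edgeR adjusted p = 0.0232).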

How the results depend on the processing

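No paired analysis was possible because the labels give no replicate number that ties libraries of different groups. Over single receptors, 766 log2 fold changes from the alternatives kept their direction and their side of the threshold, 33 kept the direction and lost the call, 9 gained it and 17 changed sign, each of the 17 without a call; the cause was not tested.

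The number of receptors called was 1 for D1 against D2 at 42 days and 0 with no count filter. For age in D1 it was 1, and 0 with other size factors, no count filter, only the compared groups, either limma fit, voom or the GC and length correction. For age in D2 it was 0, and 1 with only the compared groups, voom or DESeq2. With single libraries left out, it ran from 0 to 1 for these 3 comparisons and for the difference of age changes, and from 1 to 2 for both averaged comparisons. It stayed at 1 for D1 against D2 at 2 years under all 24 alternatives.

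The number of pathway genes called was 7 for D1 against D2 at 2 years, with 11 under both limma fits, 14 under the GC and length correction, and 7 to 11 with a library left out. For age in D1 it was 3, with 1 for only the compared groups, 5 under both limma fits, 10 with the GC and length correction, 9 with DESeq2 and 2 to 7 with a library left out. For age in D2 it was 1, with 2 under voom and DESeq2 and 0 with the GC and length correction. For the difference of age changes it was 1, with 2 under both limma fits and voom, 3 with the GC and length correction, 4 with DESeq2 and 0 to 4 with a library left out.

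The sign changes were these. Oprm1 in D1 against D2 at 42 days was 0.23 under voom and -0.48 to 0.22 with a library left out (above 0 in 4 such fits). Oprm1 for age in D1 was 0.56 with the GC and length correction and -1.38 to 0.28 with a library left out, and averaged over kinds it was -0.35 to 0.47, lowest without old D1 replicate 3. In D1 against D2 at 2 years, Oprk1 was -0.020 with the pseudocount of 0.1, Oprl1 -0.34 and -1.09 with pseudocounts of 1 and 0.1, and Cnr1 0.19 with the GC and length correction and -0.40 to 0.093 with a library left out, highest without old D2 replicate 3. Oprl1 for age in D1 was -0.41 with the pseudocount of 0.1. The difference in the share of Oprk1-204 ran from -3.52 to 11.6 percentage points for D1 against D2 at 42 days and from -5.87 to 10.3 for age in D2, each lowest without young D2 replicate 1.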
